A study of Mus musculus with 6 samples.

Results

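Fn1, Vim, Snai1, Zeb1, Zeb2, Twist1, Cdh1, Cdh2, Epcam and S100a4 are 10 genes, of the 32285 listed in the count files, that are read as markers of the epithelial-mesenchymal transition, and they were chosen as a list by gene symbol. They were measured in single cells of orthotopic pancreatic tumours and are described in cancer-like cells, in cancer-like cells with high and with low Mgp and Dcn, and in fibroblast-like, macrophage-like and T cell-like cells. Snai1, Zeb1, Fn1 and Vim were high in cancer-like cells, which held at least 78.0% of the UMIs of each of these 4 genes in every library. They held 63.4 to 78.5% of the UMIs of all genes, less than of these genes in each library. Fn1 and Vim had a higher mean in fibroblast-like cells, and Zeb1 and Vim were higher in endothelial-like cells. The epithelial genes Cdh1 and Epcam were at 0.909 to 6.22 CPM, that is, UMIs per 1000000 UMIs of the cells, in the same class, which does not include a small cluster that had both epithelial genes and cancer markers. Twist1 and Cdh2 were fibroblast-like genes, and Zeb2 was highest in macrophage-like cells. Between the labelled groups S100a4 had the largest positive fitted difference in cancer-like cells, 2.05 on the log2 scale (SE 0.95), which did not pass the test across all genes.

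The tumours grew in the pancreas of C57BL/6 mice, aged 6 to 8 weeks at injection, and were taken after 4 weeks. The injected KPC cells are a mouse pancreatic cancer line from mice with a Cre driven by Pdx1, and they carried an empty vector (OE-Vector) or an Mlkl overexpression construct (OE-MLKL). Mlkl encodes the pseudokinase that breaks the plasma membrane in necroptosis. The labels name 3 samples per group, of which the matrices of OE-Vector 1 and of OE-MLKL 1, 2 and 3 were analysed here, and those of OE-Vector 2 and 3 were not analysed here. The host mice carried no transgene that the labels name. Whether the injected cells of both groups came from the same parental line is not stated, and clone and construct cannot be told apart here.

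The 4 libraries held 13489 to 18808 cells with a median of 1692 to 4490 UMIs per cell, a UMI being a molecular tag that counts 1 captured transcript. Mlkl was at 16.4 CPM in cancer-like cells of OE-Vector 1 and at 8.64, 12.9 and 19.3 CPM in those of OE-MLKL 1, 2 and 3. It was therefore not raised, the fitted difference was −0.39 on the log2 scale (SE 0.38, adjusted p = 0.999, edgeR's quasi-likelihood test with Benjamini-Hochberg adjustment), and the groups are given here as the libraries labelled OE-MLKL and OE-Vector. Whether the construct carries the 3' end that is counted, and whether the labels hold, was not tested, so that a difference between the groups is one between libraries with these labels. Cancer-like cells of OE-MLKL 3 stood apart from the others, with a median absolute log2 difference of 0.346 to 0.376 over genes in pairs with OE-MLKL 3 against 0.172 between OE-MLKL 1 and 2 and 0.268 and 0.230 between OE-Vector 1 and these. By Pearson r across these 8676 genes, which are not independent replicates, OE-MLKL 3 did not stand apart from OE-Vector 1, the latter being at 0.932, 0.956 and 0.954 with OE-MLKL 1, 2 and 3. Any 2 libraries shared 55 to 87 cell barcodes, which was at most 0.623% of the smaller library. The cell classes carried their markers, since 16 cancer markers summed to 2579 to 4483 CPM in cancer-like cells and to at most 868 CPM in fibroblast-like cells. Y-linked transcripts were at 1.55 to 5.35 CPM in cancer-like cells and at 152 to 250 CPM in fibroblast-like, macrophage-like and T cell-like cells.

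In the epithelial-mesenchymal transition, epithelial cells lose their lateral junctions and apical-basal polarity and take on a migratory, fibroblast-like form. The zinc finger repressors Snai1, Zeb1 and Zeb2 and the basic helix-loop-helix factor Twist1 drive the programme, and the Snail and Zeb proteins bind E-boxes of the sequence CACCTG in promoters of epithelial genes such as Cdh1. Cdh1 (E-cadherin) and Epcam are adhesion molecules of epithelia, Cdh2 is the cadherin of neural and mesenchymal cells, and Vim, Fn1 and S100a4 encode an intermediate filament protein, a matrix glycoprotein and a calcium-binding protein that are gained in mesenchymal cells. Fibroblasts, macrophages and T cells use several of these genes by themselves, so that a level in a whole tumour does not tell which cells it came from. The pancreatic cancers of KPC mice are known for a range of epithelial and mesenchymal states.

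Sequence upstream of the start was read for the members listed in the RefSeq promoter table of GRCm38.p6, as 250 bases before the start, and CACCTG was searched on both strands, which is the same as CACCTG or CAGGTG on the printed strand. Of the 10 genes 6 had a window, with 9 windows in all, and 2 of these windows held the E-box, against 17.2% of all 32851 windows. The windows of Epcam (chr17:87635729-87635978, plus strand) and Snai1 (chr2:167537945-167538194, plus strand) are shown because they are those 2, 1 of an adhesion gene and 1 of a repressor. Capitals mark the E-box, which began 187 and 19 bases before the start of Epcam and 126 bases before that of Snai1.
Epcam: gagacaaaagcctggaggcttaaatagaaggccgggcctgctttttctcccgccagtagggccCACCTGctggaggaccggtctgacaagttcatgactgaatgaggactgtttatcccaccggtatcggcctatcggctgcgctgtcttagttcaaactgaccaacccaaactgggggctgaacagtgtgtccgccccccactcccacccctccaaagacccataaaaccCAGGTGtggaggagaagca
Snai1: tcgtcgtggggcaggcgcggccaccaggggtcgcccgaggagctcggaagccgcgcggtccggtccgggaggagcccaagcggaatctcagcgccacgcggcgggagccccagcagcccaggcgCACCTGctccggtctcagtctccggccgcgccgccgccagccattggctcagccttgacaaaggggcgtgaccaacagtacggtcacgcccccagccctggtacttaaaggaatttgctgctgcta
A match of these letters describes the window and says nothing of binding in these cells.

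The plot of levels by class shows each of the 10 genes in each library. Levels are in CPM of that class in that library, and each class mean is over the 4 libraries with their SD, as a description with no test. Among cancer-like, fibroblast-like, macrophage-like and T cell-like cells, Snai1, Zeb1 and S100a4 had their highest mean in cancer-like cells, Fn1, Vim, Twist1 and Cdh2 in fibroblast-like cells, Zeb2 in macrophage-like cells, and Cdh1 and Epcam in T cell-like cells. Without OE-Vector 1 the count for cancer-like cells was 5 in place of 3 and that for fibroblast-like cells 2 in place of 4, because Fn1 and Vim changed places. Without OE-MLKL 2 S100a4 was highest in T cell-like cells. Outside these 4 classes Zeb1 and Vim were higher in endothelial-like cells, and Cdh1 and Epcam in dendritic cell-like cells.

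**Figure D1:**
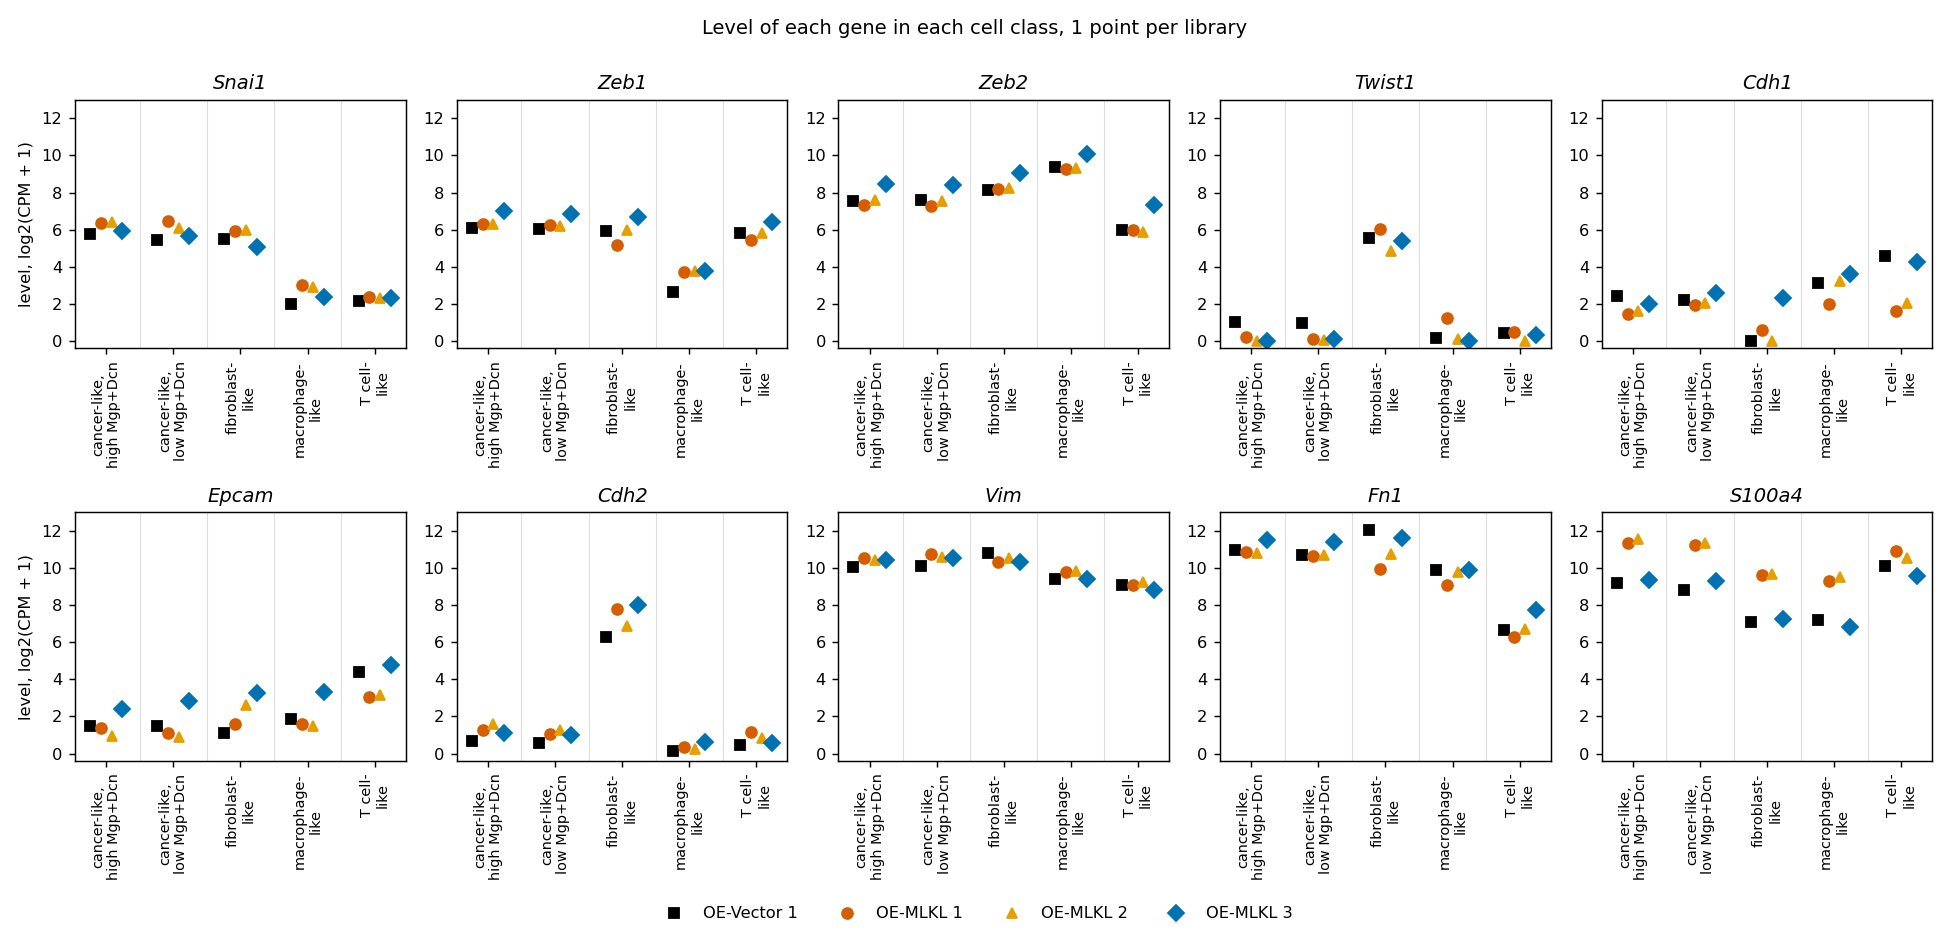
Level of each of the 10 genes, as log2(CPM + 1), in 5 cell classes (x axis), with 1 point per library. Snai1 and Zeb1 are near the levels of fibroblast-like cells in cancer-like cells and Snai1 is low in macrophage-like and T cell-like cells, while Twist1 and Cdh2 stand up only in fibroblast-like cells.

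Snai1 (ENSMUSG00000042821; chromosome 2, 167538195 to 167542814, plus strand, in the GENCODE vM21 annotation of GRCm38) encodes the repressor Snail. It was at 43.6 CPM in cancer-like cells of OE-Vector 1 and at 86.3, 69.8 and 50.3 CPM in OE-MLKL 1, 2 and 3. In fibroblast-like cells the 4 libraries, in the same order, were at 43.3, 60.4, 61.3 and 32.7 CPM. The ranges of the classes overlapped, although the cancer-like value was the higher of the pair in 4 of 4 libraries (62.5 ± 19.4 against 49.4 ± 13.9 CPM, SD, n = 4). Macrophage-like cells were at 2.96 to 6.98 CPM and T cell-like cells at 3.47 to 4.09 CPM, and neither overlapped the fibroblast-like range, the next class being 9.61-fold lower.

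Zeb1 (ENSMUSG00000024238, chromosome 18) encodes the zinc finger repressor ZEB1, which T cells also use. Cancer-like cells were at 63.5 CPM in OE-Vector 1 and at 74.7, 71.9 and 116 CPM in OE-MLKL 1, 2 and 3. Fibroblast-like cells were at 34.8 to 101 CPM and T cell-like cells at 42.9 to 83.8 CPM, so that the 3 classes overlapped. Macrophage-like cells were at 5.29 to 12.7 CPM, 5.57-fold below T cell-like cells and with no overlap. Outside the classes compared, endothelial-like cells had 157 to 309 CPM of Zeb1. Neutrophil-like cells had 40.4 to 80.4 CPM, which overlapped the cancer-like range. The gene overlaps Gm22709 on the same strand.

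Zeb2 (ENSMUSG00000026872, chromosome 2) encodes the related ZEB2, which is a regulator of myeloid cells as well. Macrophage-like cells held 662 CPM in OE-Vector 1 and 618, 628 and 1092 CPM in OE-MLKL 1, 2 and 3. Fibroblast-like cells followed at 282 to 531 CPM, below the whole macrophage-like range. Cancer-like cells were at 188, 155, 185 and 333 CPM, lower than fibroblast-like cells in 4 of 4 libraries with overlapping ranges, and T cell-like cells at 58.4 to 162 CPM. OE-MLKL 3 was the highest library for Zeb2 in each of the 4 classes. The microRNA gene Mir5129 lies inside Zeb2 on the same strand.

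Twist1 (ENSMUSG00000035799, chromosome 12) encodes a basic helix-loop-helix factor of mesenchyme. Fibroblast-like cells were at 45.5, 64.5, 28.1 and 40.7 CPM in OE-Vector 1 and OE-MLKL 1, 2 and 3. The class with the next mean was 114-fold lower, and no other class of the 4 overlapped it. In cancer-like cells Twist1 had 70 UMIs in OE-Vector 1 and 9, 2 and 5 UMIs in OE-MLKL 1, 2 and 3, which is 0.972, 0.103, 0.0230 and 0.0723 CPM. Of the 70 UMIs of OE-Vector 1, 62 came from 8 cells with at least 3 UMIs each, and 4 of these 8 cells also had a Y-linked UMI.

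The epithelial adhesion genes were low in cancer-like cells. Cdh1 (ENSMUSG00000000303, chromosome 8) encodes E-cadherin and was at 3.58 CPM in cancer-like cells of OE-Vector 1 and at 2.55, 2.95 and 4.89 CPM in those of OE-MLKL 1, 2 and 3, from 222 to 338 UMIs per library. Macrophage-like cells were at 7.84, 2.90, 8.50 and 11.1 CPM and T cell-like cells at 22.4, 2.04, 3.18 and 17.9 CPM. All neighbouring classes overlapped. Fibroblast-like cells had no Cdh1 UMI in OE-Vector 1 and in OE-MLKL 2, which allows up to 3.41 and 3.83 CPM, and 0.504 and 3.999 CPM in OE-MLKL 1 and 3. Outside these classes Cdh1 was at 24.3 to 56.7 CPM in dendritic cell-like cells.

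Epcam (ENSMUSG00000045394; chromosome 17, 87635979 to 87651129, plus strand) encodes the epithelial cell adhesion molecule, and its upstream window with the pair of E-boxes is printed above. In cancer-like cells it was at 1.80, 1.28, 0.909 and 6.22 CPM in OE-Vector 1 and OE-MLKL 1, 2 and 3, OE-MLKL 3 being the high library. T cell-like cells were higher in 4 of 4 libraries, at 20.1, 7.36, 7.94 and 26.7 CPM. Dendritic cell-like cells were at 18.1 to 54.8 CPM and B cell-like cells at 28.5 to 57.8 CPM of Epcam. A cluster without a name, led by Zg16, Tff3 and Muc2 and holding 430 cells, had 155 to 579 CPM of Epcam and 28.4 to 107 CPM of Cdh1. Both genes were thus far higher in those few cells than in cancer-like cells of the same libraries.

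That cluster was led by goblet and gastric mucous cell genes, had 5 of 5 enterocyte markers raised and also had 15 of the 16 cancer markers raised, more than the 4 to 12 of the clusters named cancer-like, so that the low Epcam and Cdh1 of the cancer-like class depend on where it is counted. It held 19 cells of OE-Vector 1 and 117, 111 and 183 cells of OE-MLKL 1, 2 and 3, and its Y-linked transcripts were at 19.6 to 53.9 CPM, between those of cancer-like cells and of the other 3 classes compared. Counted with the cancer-like cells, an alternative chosen after seeing the data, it brought Epcam there to 2.77, 5.36, 4.17 and 23.3 CPM and Cdh1 to 3.74, 3.30, 3.73 and 7.95 CPM in OE-Vector 1 and OE-MLKL 1, 2 and 3. The joined class then held 41.4 to 81.5% of the Epcam UMIs and 42.9 to 80.1% of the Cdh1 UMIs. Other unnamed clusters with raised cancer markers were an acinar-led one of 296 cells, 288 of them from OE-MLKL 1, and a shallow one led by Prrx2 with 1031 cells.

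Cdh2 (ENSMUSG00000024304, chromosome 18) encodes N-cadherin, the cadherin that mesenchymal cells gain. It was at 77.4, 218, 116 and 257 CPM in fibroblast-like cells and at 0.486, 1.17, 1.496 and 1.03 CPM in cancer-like cells. The fibroblast-like mean was 160-fold above the cancer-like mean (167 ± 84.4 against 1.05 ± 0.421 CPM, SD, n = 4), and the ranges were far apart. Macrophage-like cells were at 0.116 to 0.519 CPM and T cell-like cells at 0.365 to 1.23 CPM.

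Vim (ENSMUSG00000026728, chromosome 2) encodes the intermediate filament vimentin, which leukocytes also contain. In cancer-like cells it was at 1086, 1676, 1505 and 1476 CPM in OE-Vector 1 and OE-MLKL 1, 2 and 3. Fibroblast-like cells were at 1277 to 1828 CPM, and the 2 classes had similar means and overlapping ranges (1476 ± 255 against 1436 ± 249 CPM). Fibroblast-like cells were above cancer-like cells in 1 of 4 libraries, OE-Vector 1. Macrophage-like cells (785 ± 132 CPM) were below both and T cell-like cells (536 ± 66.5 CPM) below all others, with no overlap. Endothelial-like cells had 2891 to 4262 CPM of Vim.

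Fn1 (ENSMUSG00000026193, chromosome 1) encodes fibronectin. Cancer-like cells were at 1676, 1689, 1660 and 2740 CPM, 3 libraries being almost equal and OE-MLKL 3 higher. Fibroblast-like cells varied more, at 4204, 970, 1749 and 3122 CPM, above the cancer-like cells in 3 of 4 libraries. Macrophage-like cells were at 550 to 950 CPM and T cell-like cells at 76.9 to 211 CPM, each below the class above it without overlap.

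S100a4 (ENSMUSG00000001020, chromosome 3) encodes a small calcium-binding protein that is also called fibroblast-specific protein. Cancer-like cells were at 456, 2468, 2665 and 640 CPM and T cell-like cells at 1121, 1899, 1512 and 772 CPM in OE-Vector 1 and OE-MLKL 1, 2 and 3. Fibroblast-like cells were lower than both in 4 of 4 libraries, at 138, 800 to 822 and 151 CPM in the same order. In these tumours the gene was therefore not specific to fibroblast-like cells. The spread between libraries (1557 ± 1171 CPM in cancer-like cells) was wider than the difference between neighbouring classes. S100a4 overlaps Gm42674 on the same strand.

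The share of a gene's UMIs that a class holds depends on how many cells of that class were captured and how much RNA each gave, 2976 to 6636 cells at a median of 11411 to 22731 UMIs for cancer-like cells and 56 to 175 cells at 5974 to 14143 UMIs for fibroblast-like cells. Cancer-like cells held 63.4 to 78.5% of all UMIs of the cells in the 4 libraries. They held 88.5 to 94.8% of the Snai1 UMIs, 80.0 to 87.9% of those of Zeb1, 83.2 to 91.0% of Fn1 and 78.0 to 87.8% of Vim, more than their share of all UMIs in the same plot. They held 73.3 to 92.3% of the S100a4 UMIs. Zeb2 was split between cancer-like cells (46.4 to 64.8%) and macrophage-like cells (29.4 to 42.3%).

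**Figure D2:**
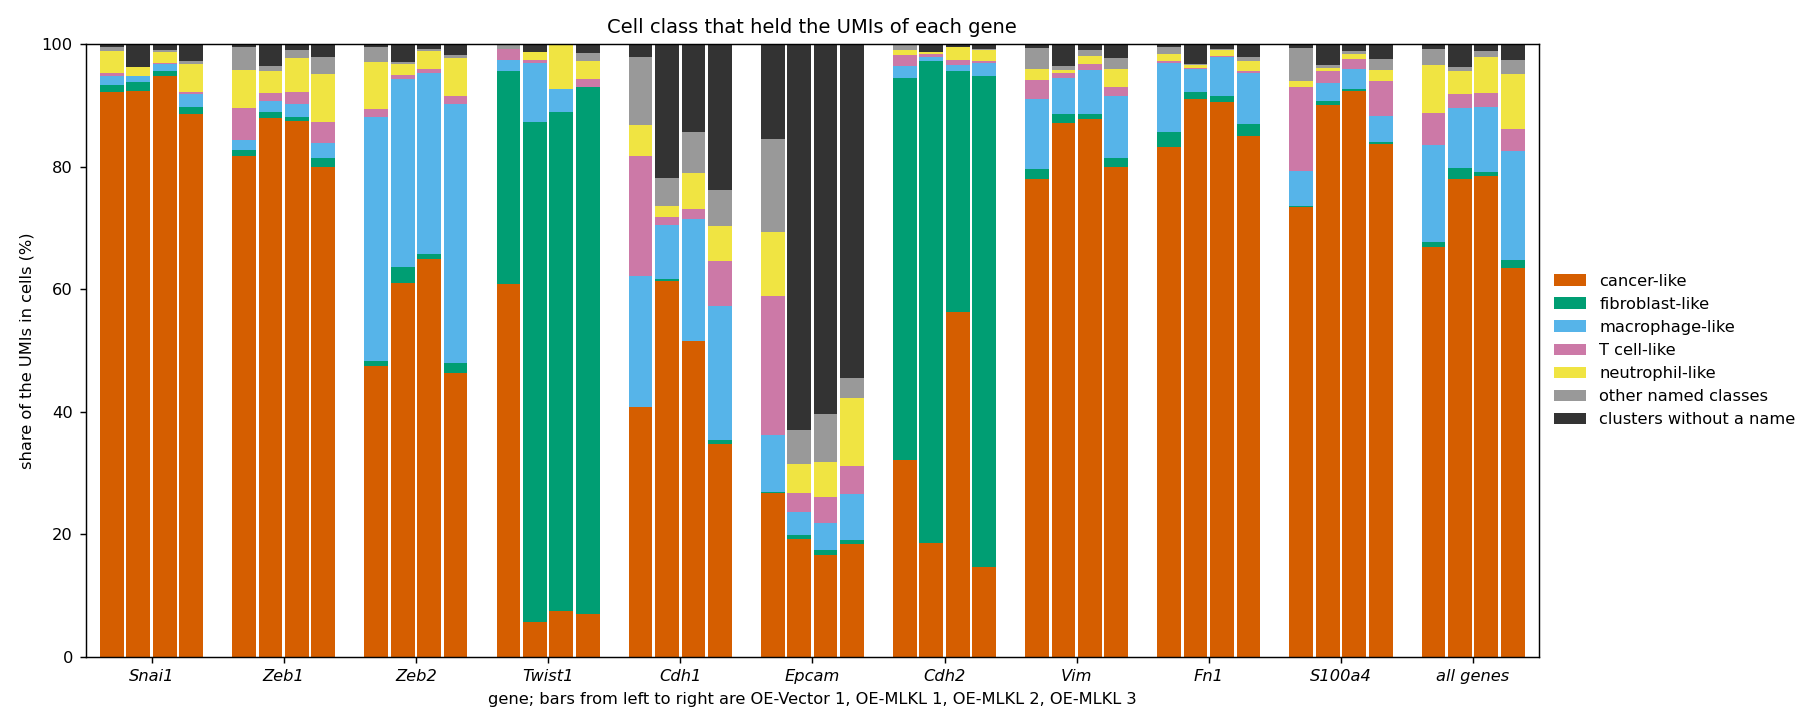
Percent of the UMIs of each gene (y axis) that came from each cell class, for each gene and library (x axis), with all genes as the last group. Snai1, Zeb1, Fn1, Vim and S100a4 are mostly from cancer-like cells, Twist1 (but for OE-Vector 1) and Cdh2 (but for OE-MLKL 2) largely from the few fibroblast-like cells, and Epcam mostly from a cluster without a name in the 3 OE-MLKL libraries.

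Fibroblast-like cells held only 0.708 to 1.78% of all UMIs. They nevertheless held 81.5 to 85.9% of the Twist1 UMIs in the OE-MLKL libraries and 34.8% in OE-Vector 1, where 60.9% came from cancer-like cells, most of them from the 8 cells described above. Of the Cdh2 UMIs they held 62.4, 78.7, 39.4 and 80.1% in OE-Vector 1 and OE-MLKL 1, 2 and 3, and cancer-like cells 32.1, 18.5, 56.3 and 14.7%. Cdh1 UMIs came from cancer-like cells to 34.7 to 61.3%, and Epcam UMIs to 16.6 to 26.7%, both below the cancer-like share of all UMIs. The unnamed clusters held 15.4% of the Epcam UMIs in OE-Vector 1 and 54.5 to 63.0% in the OE-MLKL libraries, with 0.789 to 3.69% of all UMIs.

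Free RNA in the droplets adds UMIs of abundant genes to all cells, and its make-up was read from barcodes with at most 100 UMIs. Cancer-like cells had more Snai1 than this free RNA in every library (1.12-fold to 1.41-fold) and more Zeb1 (1.24-fold to 2.09-fold), Fn1 (1.15-fold to 1.72-fold) and Vim (1.28-fold to 1.49-fold). Their Zeb2 was at 0.830, 0.850, 0.873 and 1.21 of the free RNA level in OE-Vector 1 and OE-MLKL 1, 2 and 3. Their S100a4 was at 0.933, 1.38, 1.47 and 0.930 of it in the same order. Their Cdh1 was at 0.199 to 0.446 of the free RNA level and their Epcam at 0.0323 to 0.181 of it, so that both made up less of their RNA than of the free RNA. How much of a cell's UMIs was free RNA was not estimated. Macrophage-like Snai1 was at 0.0910 to 0.126 of the free RNA level, whereas macrophage-like Zeb2 was 2.92-fold to 3.96-fold above it. Zeb1 was at 0.632 to 1.83 of that level in fibroblast-like, 0.781 to 1.51 in T cell-like and 0.874 to 1.45 in neutrophil-like cells. Fibroblast-like Twist1 and Cdh2 stood 43.6-fold to 234-fold and 37.1-fold to 65.9-fold above free RNA. In T cell-like cells Epcam stayed below it at 0.204 to 0.776, and Cdh1 ranged from 0.159 to 1.91 across libraries. The 12 fibroblast markers, of which 11 were found in every library, summed to 203 to 333 CPM in cancer-like cells against 9784 to 30580 CPM in fibroblast-like cells. Their part in the cancer-like Fn1 and Vim was not tested.

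To compare shares of cells across depths, each cell with at least 1000 UMIs was thinned to 1000 UMIs, and shallower cells were left out of these shares. A Snai1 UMI was then found in 4.60 to 8.50% of low-Mgp+Dcn cancer-like cells, against 0.260 to 0.660% of macrophage-like and 0.179 to 0.736% of T cell-like cells. Without thinning the share of low-Mgp+Dcn cancer-like cells was 51.2 to 59.3%, at median depths of 11945 to 26303 UMIs. Neutrophil-like cells had 1.17 to 2.71% of cells with a UMI after thinning. Before cells were left out their median depths were only 715 to 1360 UMIs, with 715 and 741 UMIs in OE-MLKL 1 and 2, where most of these cells were therefore left out. The low-Mgp+Dcn cancer-like shares were above those of neutrophil-like cells and the macrophage-like and T cell-like shares below them. Zeb2 was found in 44.2 to 66.6% of macrophage-like and 14.4 to 28.2% of cancer-like cells, both thinned. A Zeb1 UMI was found in 6.32 to 10.9% of thinned low-Mgp+Dcn cancer-like and 3.74 to 7.44% of thinned neutrophil-like cells. T cell-like cells were at 4.47 to 10.0%, and these ranges of Zeb1 overlapped.

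Twist1 was found in 1.79 to 6.32% of thinned fibroblast-like cells (16.5 to 38.3% without thinning) and in at most 0.0451% of thinned low-Mgp+Dcn cancer-like cells. Cdh2 was likewise found in 5.36 to 23.5% of fibroblast-like cells and in at most 0.211% of these cancer-like cells. Cdh1 was found in 0.192 to 0.621% of low-Mgp+Dcn cancer-like cells, within the range of neutrophil-like cells (0 to 0.651%), and Epcam in 0.162 to 0.365%, against 0.320 to 2.59% of neutrophil-like cells. Only the deeper neutrophil-like cells entered these shares, which do not tell whether the cancer-like UMIs of Cdh1 and Epcam were background. T cell-like shares of Cdh1 ran from 0.179 to 3.23%.

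Cancer-like cells were also read for the transition factors cell by cell. In the 2240 to 4063 cells per library that had at least 10000 UMIs and were thinned to that depth, at least 1 of Snai1, Zeb1 and Zeb2 was found in 93.2 to 98.8%. Snai1 was found in 34.2 to 50.2% of them, Zeb1 in 45.6 to 67.4% and Zeb2 in 75.7 to 94.4%. Zeb2 was thus the factor found most often, and its cancer-like level was 0.830 to 1.21 of that of free RNA. The part of free RNA in these shares was not tested. All 3 were found in 12.3 to 23.6% of cells, close to the 12.8 to 22.8% that the product of the single shares gives. Cdh1 was found in 2.35 to 4.18% of the same cells and Epcam in 0.714 to 5.30%, and a cancer-like cell had a median of 2 to 26 UMIs of S100a4 depending on the library. Detection at this depth is limited for genes of a few UMIs per cell, so that a cell with no UMI is not shown to lack the gene.

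The comparison of OE-MLKL with OE-Vector asks how these genes differ between the libraries with these labels in each kind of cell. It rests on 1 OE-Vector library and 3 OE-MLKL libraries, and the spread was estimated from the OE-MLKL libraries alone. Of 16732 genes tested in cancer-like cells, 1 was under the adjusted threshold of 0.05 (0.00598%, Hbb-bs), 802 had an unadjusted p under 0.05, and DESeq2 called 94. All 10 members were tested and 0 passed by edgeR or by DESeq2, with 1 member at an unadjusted p under 0.05. The median difference over the 10 members was 0.40 on the log2 scale against 0.03 over all genes, and 8 of the 10 were positive against 52.8% of all genes.

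**Figure D3:**
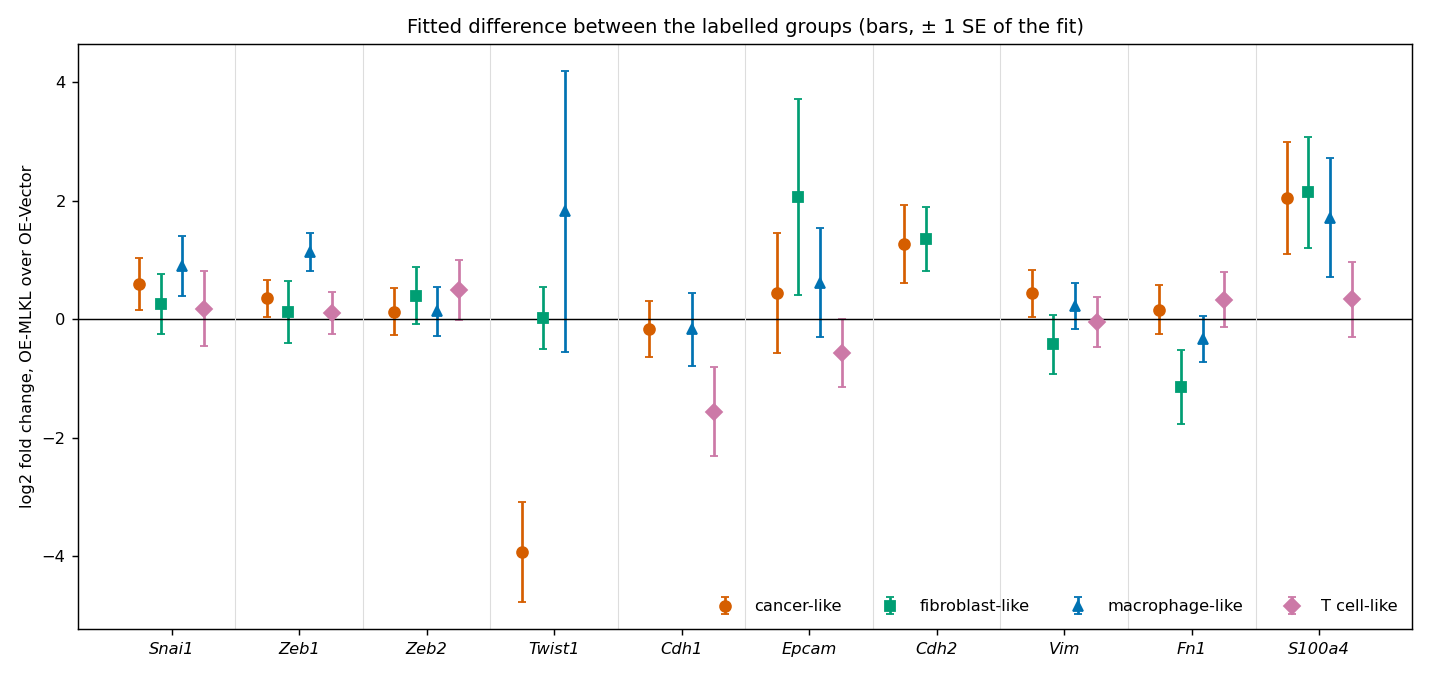
Fitted log2 fold change of OE-MLKL against OE-Vector (y axis) for each gene (x axis) in cancer-like, fibroblast-like, macrophage-like and T cell-like cells, with bars of 1 SE either side. S100a4 lies above 0 in all 4 classes and Twist1 in cancer-like cells far below 0, and no gene passed the adjusted threshold.

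Among the transition factors, Snai1 was lower in cancer-like cells of OE-Vector 1 (43.6 CPM) than in the 3 OE-MLKL libraries (50.3 to 86.3 CPM), and the fitted difference was 0.60 on the log2 scale (SE 0.44). Zeb1 was also lowest in OE-Vector 1 (63.5 against 71.9 to 116 CPM), with a difference of 0.35 (SE 0.31). OE-Vector 1 lay within the OE-MLKL range for Zeb2, with a difference of 0.13 (SE 0.40). None of these differences passed (adjusted p = 0.999 for each, edgeR's quasi-likelihood test with Benjamini-Hochberg adjustment). OE-Vector 1 lay below all 3 OE-MLKL libraries for 5 of the 10 genes, Vim, Snai1, Zeb1, Cdh2 and S100a4, where 31.4% of all genes tested did so.

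Twist1 was the member with the smallest p in cancer-like cells. Its 0.972 CPM in OE-Vector 1 stood above the 0.0230 to 0.103 CPM of the OE-MLKL libraries. The fitted difference was −3.93 (SE 0.85, adjusted p = 0.835 with edgeR's quasi-likelihood test and Benjamini-Hochberg adjustment). It passed without OE-MLKL 1 (−4.50, adjusted p = 0.0274, range over the alternatives 0.0274 to 1.0), and in low-Mgp+Dcn cells without OE-MLKL 1 (−4.31, adjusted p = 0.0480) or without OE-MLKL 3 (−4.16, adjusted p = 0.0435, range 0.0435 to 1.0). Fibroblast-like Twist1 was at 45.5 CPM in OE-Vector 1, and the OE-Vector 1 value in cancer-like cells came mostly from the 8 cells already described, 4 of them with a Y-linked UMI.

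None of the 3 adhesion genes passed the test in cancer-like cells. Cdh1 in cancer-like cells was at 3.58 CPM in OE-Vector 1, inside the 2.55 to 4.89 CPM of the OE-MLKL libraries, with a fitted difference of −0.17 (SE 0.47). Epcam was at 1.80 CPM, also inside, with 0.44 (SE 1.01), and that difference was −0.72 without OE-MLKL 3. Cdh2 was lower in OE-Vector 1 (35 UMIs, 0.486 CPM) than in the OE-MLKL libraries (71 to 130 UMIs, 1.03 to 1.496 CPM), with a difference of 1.27 (SE 0.66). The Cdh2 ranges of the groups did not overlap, although the difference rests on 35 to 130 UMIs per library and on 1 OE-Vector library.

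Vim was at 1086 CPM in cancer-like cells of OE-Vector 1 and at 1476 to 1676 CPM in OE-MLKL (1552 ± 108 CPM, SD, n = 3), with a fitted difference of 0.44 (SE 0.40). Fn1 was at 1676 CPM against 1660 to 2740 CPM, with a difference of 0.17 (SE 0.41). Neither passed, and Fn1 of OE-Vector 1 lay inside the OE-MLKL range.

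S100a4 separated the libraries in pairs. OE-Vector 1 and OE-MLKL 3 were at 456 and 640 CPM in cancer-like cells, and OE-MLKL 1 and 2 at 2468 and 2665 CPM. The fitted difference was 2.05 (SE 0.95), which is 4.15-fold, with an adjusted p of 0.999 (edgeR's quasi-likelihood test with Benjamini-Hochberg adjustment). Without OE-MLKL 3 it was 2.50 and passed (adjusted p = 0.0145, range over the alternatives 0.0145 to 1.0), and 421 genes passed in that comparison in place of 1. The difference was positive in 3 of 3 OE-MLKL libraries, but OE-MLKL 3 was closer to OE-Vector 1 than to the other two.

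Other cells showed the same split of the libraries. In macrophage-like cells S100a4 was at 145 and 114 CPM in OE-Vector 1 and OE-MLKL 3 and at 641 and 734 CPM in OE-MLKL 1 and 2, and in neutrophil-like cells at 53.9 and 92.6 CPM against 296 and 343 CPM. Free RNA had 489 and 688 CPM against 1788 and 1816 CPM. OE-MLKL 1 and 2 exceeded OE-Vector 1 and OE-MLKL 3 in each named class except B cell-like cells, where OE-MLKL 1 (199.7 CPM) was below OE-MLKL 3 (234 CPM). The S100a4 of most classes therefore moved with that of free RNA, and its part in the differences was not tested.

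**Figure D4:**
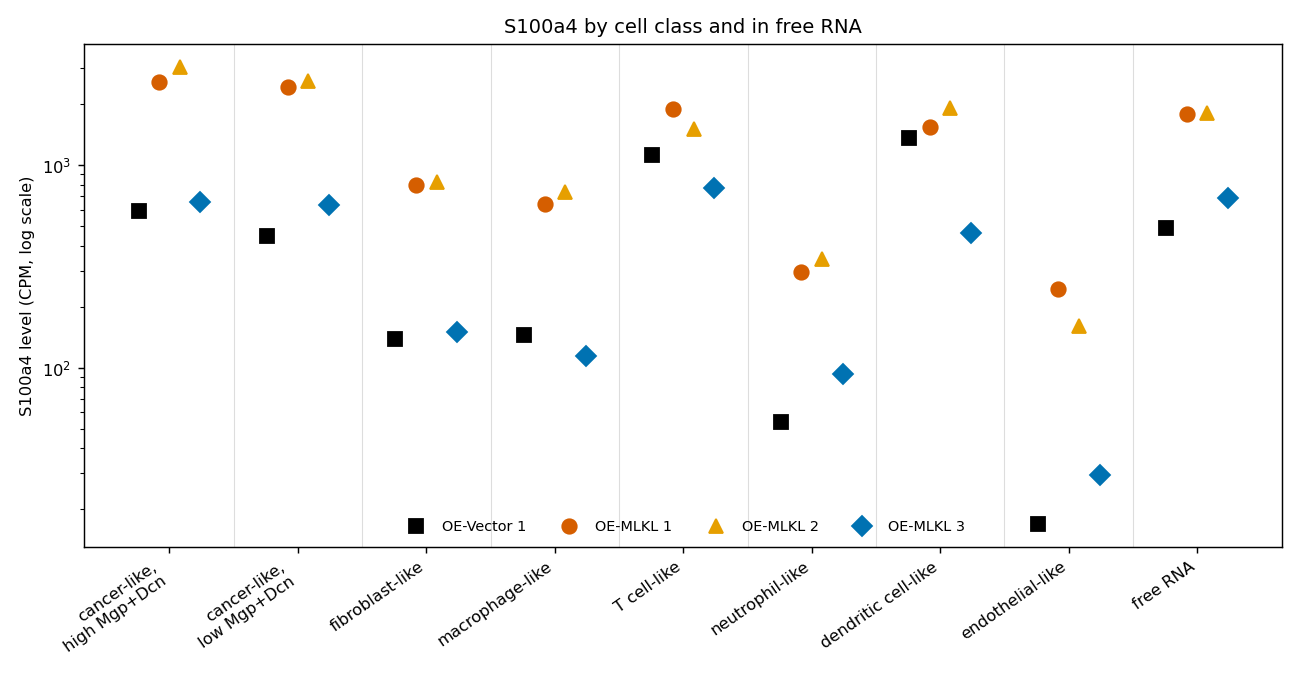
S100a4 level in CPM (log axis) in 8 cell classes and in free RNA, with 1 point per library. OE-MLKL 1 and 2 lie above OE-Vector 1 and OE-MLKL 3 in every class shown and in free RNA. Values run from 16.9 CPM in endothelial-like cells of OE-Vector 1 to 3055 CPM in high Mgp+Dcn cancer-like cells of OE-MLKL 2.

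Different clusters were the largest among the cancer-like cells of each library, a cluster led by Krt18, Fst and Cp holding 1414 of 2976 cells of OE-Vector 1 and a cluster led by Cp, Mir100hg and Hbegf 2597 of 3900 cells of OE-MLKL 3. The members were therefore also read within the 7 clusters that had at least 20 cells of each library. OE-Vector 1 was lowest in 7 of 7 for Vim and S100a4, in 6 for Zeb1, in 4 for Snai1 and in 1 for Fn1. OE-MLKL 1 and 2 were both above OE-Vector 1 and OE-MLKL 3 in 7 of 7 for S100a4 and in 6 for Snai1. OE-MLKL 3 was highest in 5 of them for Fn1, Zeb2 and Epcam. The low place of OE-Vector 1 for Vim and S100a4 in the whole class was also found in each of these 7 clusters, while OE-MLKL 1 and 2 were both above the other libraries for Vim in 4 of them. The clusters are parts of the same 4 libraries and are not replicates. In the whole class 31.4% of all genes tested had OE-Vector 1 below all OE-MLKL libraries, and such a share was not counted within clusters. The clusters went down to 23 cells of a library and to a median depth of 830 UMIs.

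Cancer-like cells were split by Mgp and Dcn, genes of matrix Gla protein and decorin, into 3610 high cells with at least 10 UMIs of the pair per 10000 UMIs and 14481 low cells. In high cells 1 of 13179 genes passed between the groups (0.00759%, Defa24), 732 had an unadjusted p under 0.05 and DESeq2 called 52. In low cells 1 of 16349 passed (0.00612%, Hbb-bs), 776 had an unadjusted p under 0.05 and DESeq2 called 85. None of the 9 and 10 members tested passed by either tool, with medians of 0.33 and 0.39 on the log2 scale.

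S100a4 in high cells was at 589.9 CPM in OE-Vector 1 and at 2572, 3055 and 653 CPM in OE-MLKL 1, 2 and 3, a difference of 1.78 (SE 0.92). In low cells it was at 446 CPM and at 2428, 2588 and 637 CPM, a difference of 2.06 (SE 0.93). Both passed without OE-MLKL 3, at 2.22 (adjusted p = 1.57e-05, range over the alternatives 1.57e-05 to 1.0) and 2.50 (adjusted p = 0.0121, range 0.0121 to 1.0). Snai1 differed by 0.38 in high and 0.62 in low cells, Vim by 0.33 and 0.47, and Cdh1 in high cells by −1.05 (SE 0.59), none of them passing. No member passed the test of the difference between the high-cell and the low-cell effect, in which 24 of 14366 genes did (0.167%). The smallest unadjusted p among members there was 0.0171, for S100a4 (−0.30), followed by 0.0223 for Cdh1 (−0.98).

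In fibroblast-like cells, 56 to 175 per library, 3 of 10618 genes passed (0.0283%; Il1rl1, Nts and Gzmc, all lower), 477 had an unadjusted p under 0.05 and DESeq2 called 9. Of 9 members tested 0 passed by either tool, 2 had an unadjusted p under 0.05, and their median was 0.27. S100a4 was at 138 CPM in OE-Vector 1 and 800, 822 and 151 CPM in OE-MLKL 1, 2 and 3, a difference of 2.14 (SE 0.94). Cdh2 was lowest in OE-Vector 1, at 77.4 CPM against 116 to 257 CPM, a difference of 1.35 (SE 0.54). Fn1 was highest in OE-Vector 1, at 4204 CPM against 970 to 3122 CPM, a difference of −1.14 (SE 0.62). Vim was also highest in OE-Vector 1, at 1828 CPM against 1277 to 1501 CPM, a difference of −0.42 (SE 0.50).

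OE-Vector 1 lay below all OE-MLKL libraries for Cdh2, Zeb2, Epcam and S100a4, where 24.8% of all genes tested in fibroblast-like cells did so, and above all of them for Fn1 and Vim, where 24.3% did so. The adjusted p of Cdh2, S100a4, Fn1 and Vim was 0.999 each (edgeR's quasi-likelihood test with Benjamini-Hochberg adjustment). The fibroblast markers of these cells also varied, summing to 29605 CPM in OE-Vector 1 and to 9784, 18352 and 30580 CPM in OE-MLKL 1, 2 and 3, and mesothelial markers summed to 329 to 600 CPM with 7 of 7 found. Their part in the differences was not tested. Twist1 differed by 0.02 (SE 0.53) in fibroblast-like cells.

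In macrophage-like cells 3 of 13617 genes passed (0.022%; Apol7c, Cxcl3 and Tnfrsf9, all lower), 826 had an unadjusted p under 0.05 and DESeq2 called 81. Of 9 members tested 0 passed by either tool, and the median was 0.62 against 0.05 over all genes. For 3 of the 9 members OE-Vector 1 lay below all OE-MLKL libraries, where 33.8% of all genes tested in these cells did so. Zeb1 was 1 of them, at 5.29 CPM in OE-Vector 1 and at 11.97, 12.7 and 12.6 CPM in OE-MLKL 1, 2 and 3. Its values rest on 91 to 242 UMIs per library and were 0.114 to 0.227 of the free RNA level, those of Snai1 being 0.0910 to 0.126 of it. The part of free RNA in the Zeb1 and Snai1 values was not tested. The OE-MLKL libraries were close to each other, and the difference of 1.14 (SE 0.32, adjusted p = 0.696 with edgeR's quasi-likelihood test and Benjamini-Hochberg adjustment) kept its size over the alternatives, from 1.02 to 1.23.

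Snai1 differed by 0.90 (SE 0.51) and S100a4 by 1.72 (SE 1.01) in macrophage-like cells, the latter passing without OE-MLKL 3 (2.20, adjusted p = 0.0189, range over the alternatives 0.0189 to 1.0). Zeb2, whose mean was higher in macrophage-like cells than in the other classes compared, differed by 0.13, with OE-Vector 1 inside the OE-MLKL range. The cells were of different clusters, one led by Lyz2 and C1qa holding 1477 of 1945 cells of OE-Vector 1 and 2497 of 2642 of OE-MLKL 3, and one led by C1qc, F13a1 and Mrc1 holding 2243 of 2431 of OE-MLKL 1 and 1930 of 2263 of OE-MLKL 2. Monocyte markers summed to 407 and 328 CPM in the first pair and to 1412 and 1293 CPM in the second, with 5 of 5 found, and their part in the S100a4 values was not tested. Zeb1 did not follow that split of the libraries. Zeb2 was higher in the first pair (662 and 1092 CPM) than in the second (618 and 628 CPM), although OE-Vector 1 was close to the second.

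In T cell-like cells 5 of 11726 genes passed (0.0426%), all lower in OE-MLKL, namely the mast cell protease genes Mcpt2, Mcpt1, Cma1 and Cpa3 and the cytokine gene Il13, 447 had an unadjusted p under 0.05 and DESeq2 called 12. Of 8 members tested 0 passed by either tool, and 0 had an unadjusted p under 0.05. Cdh1 was at 22.4 CPM in OE-Vector 1 and at 2.04, 3.18 and 17.9 CPM in OE-MLKL 1, 2 and 3, a difference of −1.56 (SE 0.75). Epcam was at 20.1 CPM and at 7.36, 7.94 and 26.7 CPM, a difference of −0.57 (SE 0.57). OE-Vector 1 and OE-MLKL 3, the low pair for S100a4, were the high pair for these adhesion genes, and without OE-MLKL 3 Cdh1 was at −3.01 (adjusted p = 0.000140, range over the alternatives 0.000140 to 1.0) and Epcam at −1.31 (adjusted p = 0.0327, range 0.0327 to 1.0).

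Acinar markers moved with the Cdh1 and Epcam of T cell-like cells, summing to 429 and 238 CPM in OE-Vector 1 and OE-MLKL 3 and to 47.0 and 36.9 CPM in OE-MLKL 1 and 2, with 5 of 5 found. Enterocyte markers did not follow that order, at 32.1 and 115 CPM against 87.5 and 30.2 CPM. Dendritic cell markers were at 27.4 and 37.8 CPM against 39.2 and 40.5 CPM, with 3 of 7 found in all libraries and Cd209a at 0. The part of these lists, and of the mast cell genes named above, in the values was not tested. S100a4 differed by 0.34 in T cell-like cells, Zeb2 by 0.49 and Vim by −0.05.

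Whether an effect differed between classes was tested in joint fits that kept the library as a block. Between fibroblast-like and cancer-like cells, 20 of 14760 genes passed (0.136%), and Twist1 was the 1 member among them. Its effect was 3.89 higher on the log2 scale in fibroblast-like cells (SE 0.55, adjusted p = 0.0152 with edgeR's quasi-likelihood test and Benjamini-Hochberg adjustment, 5.01e-07 to 0.00674 with each OE-MLKL library left out). The Twist1 value rests on 1 OE-Vector library, in which 62 of the 70 cancer-like UMIs came from 8 cells, so that it describes these libraries and does not show that an effect of the construct differs between the classes. Vim moved apart in the same test, by −0.87 (SE 0.25), with an adjusted p of 0.416 (same test), and Fn1 by −1.42 (SE 0.33, adjusted p = 0.188). Without OE-MLKL 1 both passed, Vim at −0.80 (adjusted p = 0.0126, range with 1 library left out 0.0126 to 0.799) and Fn1 at −1.14 (adjusted p = 1.87e-06, range 1.87e-06 to 0.299), and without OE-MLKL 3 Fn1 passed at −1.63 (adjusted p = 0.000602). The S100a4 effect was nearly the same in both classes, with a difference of 0.01 (SE 0.28).

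Between macrophage-like and cancer-like cells 0 of 14861 genes passed the edgeR test of the difference (0%) with 796 at an unadjusted p under 0.05, and between T cell-like and cancer-like cells 0 of 14951 (0%) with 748. The Zeb1 effect was 0.81 higher (SE 0.30) in macrophage-like cells. The S100a4 effect was lower in T cell-like cells by −1.58 (SE 0.37, adjusted p = 0.611 with edgeR's quasi-likelihood test and Benjamini-Hochberg adjustment), and the Cdh1 effect by −1.71 (SE 0.71). No member passed with all libraries, while without OE-MLKL 3 the difference passed for Zeb1 in macrophage-like cells (0.98, adjusted p = 0.0283, range with 1 library left out 0.0283 to 1.0) and for S100a4 (−1.83, adjusted p = 0.00101, range 0.00101 to 0.818) and Cdh1 (−2.66, adjusted p = 0.0162, range 0.0162 to 1.0) in T cell-like cells.

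The comparison of high with low Mgp+Dcn cells asks how the members go with matrix gene expression among cancer-like cells of the same tumour. The share of high cells was 8.58% (95% exact Clopper-Pearson interval 7.50 to 9.77%) in OE-Vector 1 and 30.4% (29.2 to 31.5%), 18.8% (17.8 to 19.7%) and 10.3% (9.24 to 11.4%) in OE-MLKL 1, 2 and 3. The OE-MLKL mean of 19.8% (SD 10.1, n = 3) was 11.2 points above OE-Vector 1, with p = 0.5 in a two-sided exact permutation test that cannot go below 0.25. The difference was 5.94 points without OE-MLKL 1. The classes are ranges of a score, and 4.37 to 9.93% of the cells lay between 8 and 12.5 UMIs per 10000, near the threshold. In high cells the median was 19 to 34.5 UMIs for Mgp and 0 for Dcn in each library, so that the typical high cell was high in Mgp. The fibroblast genes Col1a1, Col1a2, Lum and Dpt had a median of 0 UMIs in high cells of all libraries, Col3a1 a median of 1 in OE-Vector 1 and OE-MLKL 3 and Pdgfra a median of 1 in OE-MLKL 3, both being 0 in the others, and the share of cells with a Y-linked UMI was 1.91 to 9.87% in high and 2.11 to 11.1% in low cells.

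With the library as a block, 2359 of 14364 genes passed between high and low cells (16.4%), 1060 higher and 1299 lower in high cells, and DESeq2 called 1881. Of 9 members tested 2 passed by each tool, a share near that of all genes. Fn1 was higher in high cells, at a mean of 2149 against 1919 CPM, by 0.15 on the log2 scale (SE 0.04, adjusted p = 0.0270, edgeR's quasi-likelihood test with Benjamini-Hochberg adjustment). Vim was lower, at a mean of 1322 against 1465 CPM, by −0.16 (SE 0.04, adjusted p = 0.0181, same test). Both are mesenchymal genes, and they moved in opposite directions by small amounts. High cells were shallower than low cells in every library. Their median depth was 21647.5 against 26303 UMIs in OE-Vector 1. It was 10996 against 12424, 10733 against 11945 and 18594 against 21060 UMIs in OE-MLKL 1, 2 and 3. The part of depth in these differences was not tested.

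**Figure D5:**
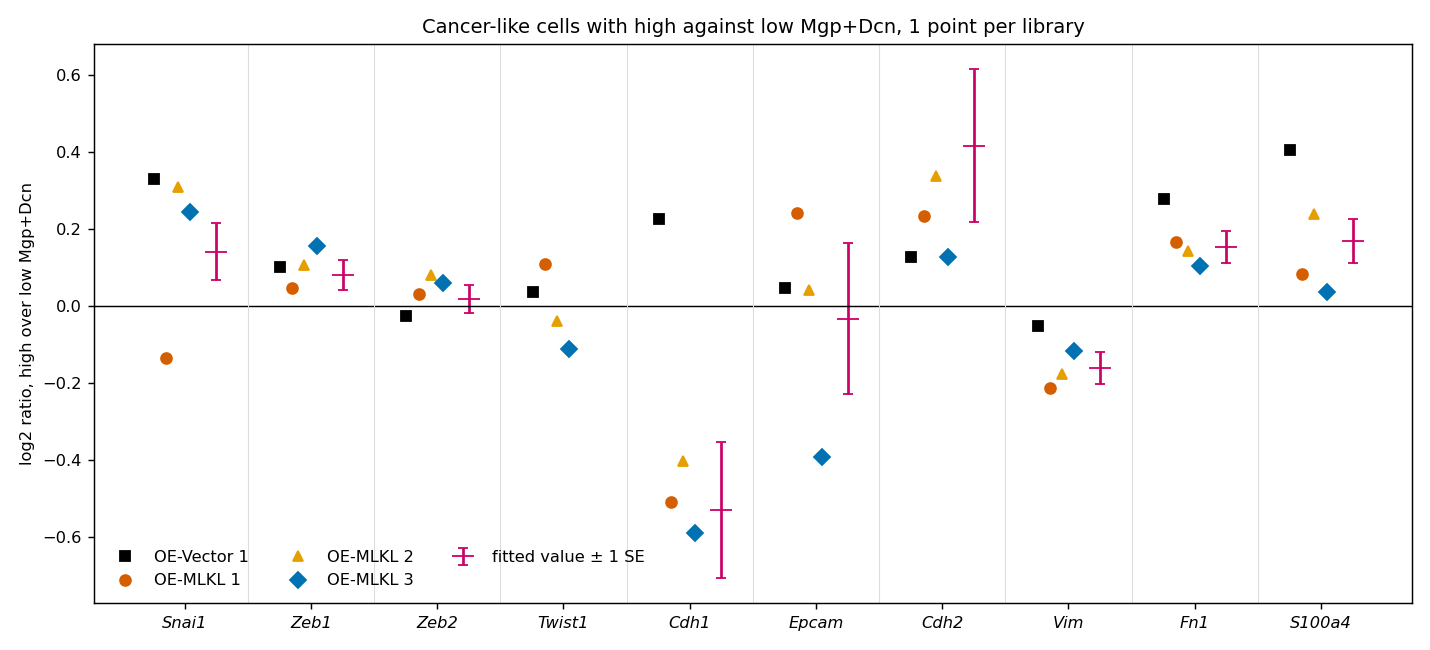
Difference between high and low Mgp+Dcn cancer-like cells of the same library for each gene, as the log2 ratio of CPM + 1 (points, 1 per library) and as the fitted log2 fold change with 1 SE (bars). Fn1 lies above 0 and Vim below 0 in all 4 libraries, and Cdh1 lies below 0 in all libraries but OE-Vector 1.

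Fn1 in high cells was at 2012, 1833, 1803 and 2949 CPM in OE-Vector 1 and OE-MLKL 1, 2 and 3, against 1660, 1634, 1635 and 2746 CPM in low cells. The direction was the same in 4 of 4 libraries, with log2 ratios from 0.10 to 0.28. Vim in high cells was at 1052, 1503, 1358 and 1373 CPM, against 1091, 1743, 1535 and 1490 CPM in low cells, lower in 4 of 4 libraries. The Fn1 call was lost without OE-Vector 1 (0.11, adjusted p = 0.151), without OE-MLKL 1 (0.16, adjusted p = 0.0737) and without OE-MLKL 2 (0.16, adjusted p = 0.102). The Vim call was lost without OE-MLKL 1 (−0.13, adjusted p = 0.135), without OE-MLKL 2 (−0.15, adjusted p = 0.114) and at a threshold of 20 per 10000 UMIs (−0.17, adjusted p = 0.0512). The 14 alternatives gave 0.11 to 0.18 for Fn1 and −0.20 to −0.13 for Vim, with adjusted p of 0.00391 to 1.0 and 0.000131 to 1.0, and 10 of the 14 called each gene.

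Of the transition factors, Snai1 was at 54.2, 80.6, 83.5 and 58.9 CPM in high and 42.9, 88.5, 67.2 and 49.6 CPM in low cells, higher in 3 of 4 libraries and lower in OE-MLKL 1. Its fitted difference was 0.14 (SE 0.07, adjusted p = 0.241, edgeR's quasi-likelihood test with Benjamini-Hochberg adjustment), and without OE-MLKL 1 it was 0.29 and passed (adjusted p = 0.00261, range over the alternatives 0.00261 to 1.0). Zeb1 differed by 0.08 (SE 0.04) and Zeb2 by 0.02 (SE 0.04), neither passing. Twist1 had too few UMIs to be tested.

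Cdh1 was at 4.31, 1.72, 2.097 and 3.03 CPM in high cells and at 3.54, 2.88, 3.096 and 5.06 CPM in low cells, lower in high cells of the 3 OE-MLKL libraries and higher in those of OE-Vector 1. The fitted difference was −0.53 (SE 0.18, adjusted p = 0.0605, same test), and it passed without OE-Vector 1 (−0.71, adjusted p = 0.00819), at a threshold of 5 (−0.66, adjusted p = 0.00944), with doublets kept (−0.53, adjusted p = 0.0285) and with no filter on low counts (−0.55, adjusted p = 0.00432), the alternatives ranging from 0.00432 to 1.0. S100a4 was higher in high cells of 4 of 4 libraries, by 0.17 (SE 0.06, adjusted p = 0.0651), and passed without OE-MLKL 3 (0.23, adjusted p = 0.0181), with library size alone (0.19, adjusted p = 0.0295) and with no filter (0.14, adjusted p = 0.00808), the alternatives ranging from 0.00808 to 1.0. Cdh2 differed by 0.42 (SE 0.20) and Epcam by −0.03. The cadherins pointed opposite ways, and neither passed.

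Other genes of the same programme were read from lists of further regulators, mesenchymal and matrix genes, epithelial genes and TGF-beta pathway genes. Between high and low cells 2 of 7 regulators tested rose and none fell (median 0.16), 4 of 23 mesenchymal and matrix genes rose and 4 fell (median 0.04), 3 of 21 epithelial genes rose and 4 fell (median 0.01), and 5 of 12 TGF-beta genes rose and none fell (median 0.07). Over all genes 16.4% passed with a median of −0.00. Krt19, a keratin of ductal cells, fell by 1.54 on the log2 scale in high cells (adjusted p = 8.07e-06, edgeR's quasi-likelihood test with Benjamini-Hochberg adjustment), Cldn3, a tight junction claudin, by 1.23, Tagln, an actin-binding protein, by 0.79, Krt7 by 0.43 and Tnc, the matrix protein tenascin C, by 0.29. Thbs1, which encodes thrombospondin, was higher by 0.59, the ligands Tgfb3 and Tgfb1 by 0.36 and 0.33, and the epithelial genes Jup and Spint2 by 0.34 and 0.30.

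Between OE-MLKL and OE-Vector no gene of the 4 lists passed in any class. In cancer-like cells the medians were −0.30 over 12 regulators, −0.22 over 24 mesenchymal and matrix genes, 0.27 over 21 epithelial genes and 0.13 over 12 TGF-beta genes, against 0.03 over all genes. Tnc was at 292 CPM in cancer-like cells of OE-Vector 1 and at 65.2, 94.1 and 148 CPM in OE-MLKL 1, 2 and 3 (−1.63, adjusted p = 0.872, same test). Lcn2, which encodes lipocalin 2, was at 147 CPM against 46.8, 51.3 and 54.5 CPM (−1.62, adjusted p = 0.575). OE-Vector 1 lay above all OE-MLKL libraries for both without passing, and the same genes had the smallest p of the lists in high cells (Lcn2 −2.29, Tnc −1.93) and in low cells (Lcn2 −1.58, Tnc −1.58). In fibroblast-like cells Tnc was at 259.5 CPM against 12.1, 57.4 and 28.7 CPM (−3.08, adjusted p = 0.301, same test) and Postn, which encodes periostin, differed by −2.21 (adjusted p = 0.766). In macrophage-like cells the genes with the smallest p were Tnc (−1.40, adjusted p = 0.449) and Ltbp1, which encodes a binding protein of latent TGF-beta (1.13, adjusted p = 0.788), and in T cell-like cells Ltbp1 (1.20) and Spint2 (−0.64), none of them passing.

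The levels of some list genes, chosen after their values were seen, place the members among their pathway. The regulators Prrx1 and Snai2, like Twist1, had their level in fibroblast-like cells, at 80.1 to 223 CPM and 7.56 to 25.04 CPM there and at most 0.902 and 0.194 CPM in cancer-like cells. Foxc2, a forkhead factor, was higher in cancer-like cells, at 26.1 to 41.4 CPM against 3.33 to 15.9 CPM in fibroblast-like cells. The epithelial factors Grhl2, Ovol2 and Esrp1 were at no more than 0.130 CPM in cancer-like cells, whereas Ehf, an epithelial Ets factor of the same list, was at 56.7 to 262 CPM and Elf3 at 2.03 to 3.43 CPM. The keratins Krt8 and Krt18 were present there, at 447 to 731 and 363 to 744 CPM, against at most 129 CPM in fibroblast-like cells. Krt7 overlapped, at 18.6 to 33.9 CPM in cancer-like and 13.7 to 32.2 CPM in fibroblast-like cells. Krt19 had the higher mean in fibroblast-like cells, at 15.3 to 65.98 CPM against 8.04 to 32.1 CPM in cancer-like cells, with overlapping ranges. These keratins and Ehf are among the 16 cancer markers used to name the class, so their levels there are not independent of the naming.

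The genes whose log2(CPM + 1) followed each member most closely over 20 sums, 5 classes in 4 libraries, were named as a description, since sums of 1 library share its depth and cells. For Snai1 they were Trip6 (Pearson r = 0.995) and Npdc1 (0.987), for Zeb1 Otud7b (0.972) and Ahdc1 (0.964), and for Zeb2 Tmbim1 (0.965) was among the closest 2. Twist1 was followed by Rhoj and Ghr (0.986 each) and Cdh2 by Gm17167 (0.989) and Osr1 (0.987). For Vim they were Adamtsl5 (0.962) and Thra (0.954), for Fn1 Fndc3b (0.977) and Agap1 (0.976), and for S100a4 Arl6ip4 (0.944) and Mrps26 (0.922). Cdh1 had the weakest best match, Fgd3 (0.879) and Scly (0.868), and Epcam was followed by Arfgef1 (0.947) and Zfp592 (0.944).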

How the data were processed

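Single cells of the tumours were sequenced with the 10x 3' v2 chemistry, and the UMI counts that the authors deposited were raw and covered all barcodes, without filter or normalisation. The labels name Cell Ranger 2.1.1 and mm10, the methods Cell Ranger 3.1.0 and the file headers 7.1.0, and whether intronic reads were counted is not given in the sources used here. The 10 genes and the pathway lists were chosen with earlier results of these data known.

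Barcodes were kept as cells from 500 UMIs upwards if over 200 genes were found, with under 10% mitochondrial and at most 5% haemoglobin UMIs. Doublets were scored against simulated doublets and removed at 0.8% per 1000 cells, 1893 to 4255 cells per library. Cells were clustered on 10 components of 2000 variable genes with 20 neighbours (leidenalg 0.10.2, igraph 0.11.9, resolution 1), with the 10 genes, Mgp, Dcn and sex-linked genes left out, which gave 36 clusters. Each cluster was named from at least 3 listed markers found in 10% of cells and 4-fold above the median over groups of other clusters. Clusters at a distance under 0.2 formed 1 group for that reference only. A cluster with more raised markers of an unrelated class was left without a name. So was one led by genes of another class or by goblet or mast cell genes, and a shallow one led by none of its markers. The naming rule was set after the clusters had been seen, so class limits may differ from those of the study. In R 4.3.3, counts summed per class and library were tested with edgeR 4.0.16 (TMM scaling, filterByExpr, quasi-likelihood test, Benjamini-Hochberg adjustment over all genes, threshold 0.05). DESeq2 1.42.0 was an alternative. The comparison of OE-MLKL with OE-Vector had 3 and 1 libraries. High and low Mgp+Dcn cells, at least 2000 UMIs deep, were compared with the library as a block, since they came from the same tumours, and the fits of a difference between classes were added after seeing the data. The text names the 10 genes throughout, up to 10 list genes per comparison by size among those past the threshold or, where none passed, the 2 with the smallest p, and the 2 genes most like each member, of which 1 is not reported here. Other genes that passed in a class were named after their values were seen. Nothing states that the labelled replicates are separate cultures of injected cells, so p-values measure the spread between these libraries. Intervals and floors (3 counts) cover counting error only. The scripts were tested on simulated data.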

Additional observations from a re-analysis of the deposited data

Results flagged for a closer look

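The difference of OE-MLKL from OE-Vector was not the same in fibroblast-like and cancer-like cells for Twist1, by 3.89 on the log2 scale, and the test of the difference itself passed (adjusted p = 0.0152, edgeR's quasi-likelihood test with Benjamini-Hochberg adjustment). Cancer-like cells held 70 Twist1 UMIs in OE-Vector 1 and 2 to 9 in the OE-MLKL libraries, and 62 of the 70 came from 8 cells, 4 of which had a Y-linked UMI. The difference rests on that 1 OE-Vector library and does not show that an effect of the construct differs between the classes. The part of these 8 cells in it was not tested.

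The Vim effects pointed opposite ways in the same pair of classes, 0.44 (SE 0.40) in cancer-like and −0.42 (SE 0.50) in fibroblast-like cells. Every OE-MLKL library was above OE-Vector 1 in the former and below it in the latter. Of all genes tested, 31.4% had OE-Vector 1 below all OE-MLKL libraries in cancer-like cells, and 24.3% had it above all of them in fibroblast-like cells. The share of genes with both was not counted. The difference of −0.87 did not pass the adjusted threshold (adjusted p = 0.416, same test), and passed without OE-MLKL 1 (−0.80, adjusted p = 0.0126, range with 1 library left out 0.0126 to 0.799).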

How the results depend on the processing

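Of 683 log2 fold changes of members recomputed under an alternative, 622 kept their direction and side of the threshold, 8 lost and 17 gained a call and 36 turned direction. No paired analysis was possible because OE-MLKL and OE-Vector share only replicate number 1 among the libraries analysed. Between high and low cells the library is a block by design, and without that block 0 genes passed in place of 2359, with Fn1 at 0.15 and Vim at −0.17. With 1 library left out that comparison called 1242 (without OE-MLKL 2) to 2138 genes.

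Counts of genes called between the groups moved with the library left out and with the tool, and the cause was not tested. With 1 OE-MLKL library left out, 2 to 421 genes passed in cancer-like cells, 6 to 913 in high cells, 2 to 427 in low cells, 0 to 198 in macrophage-like, 26 to 560 in T cell-like and 1 to 50 in fibroblast-like cells, the highest count being without OE-MLKL 3 in all but fibroblast-like cells (12, against 50 without OE-MLKL 1). DESeq2 called 94, 52, 85, 81, 12 and 9 in the same order. With no filter on low counts 81 passed in high cells, 7 in low, 33 in macrophage-like, 20 in T cell-like and 107 in fibroblast-like cells. Library size alone gave 0 in cancer-like and in high cells, RLE scaling 0 in high cells, and doublets kept 0 in macrophage-like and in fibroblast-like cells. In high cells thresholds of 5 and 20 gave 0 and 2, and cells without a Y-linked UMI 0. With 1 library left out, 2 to 5 members were highest in cancer-like and 2 to 4 in fibroblast-like cells, 5 and 2 being without OE-Vector 1. Without OE-MLKL 2 only Snai1 and Zeb1 were highest in cancer-like cells, because S100a4 was then highest in T cell-like cells. Without thinning 1 member had its highest share of cells in T cell-like cells.

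The directions that turned were of differences not past the threshold, with Epcam in macrophage-like (0.62) and cancer-like cells (0.44) among the larger. With 1 OE-MLKL library left out, the log2 difference between the groups in cancer-like cells ran from −0.14 to 0.30 for Zeb2 and −0.72 to 0.86 for Epcam. In high cells it ran from −0.18 to 0.10 for Fn1, −0.12 to 0.38 for Zeb2 and −0.58 to 0.46 for Epcam, and in low cells from −0.015 to 0.27 for Fn1, −0.16 to 0.29 for Zeb2, −0.24 to 0.046 for Cdh1 and −0.79 to 0.85 for Epcam. Macrophage-like cells gave −0.13 to 0.24 for Zeb2, −0.51 to 0.19 for Cdh1 and −0.50 to 0.95 for Epcam. T cell-like cells gave −0.046 to 0.55 for Fn1, −0.18 to 0.14 for Vim, −0.069 to 0.24 for Zeb1, −0.00012 to 0.70 for Zeb2 and −0.021 to 0.69 for S100a4, and fibroblast-like cells −0.28 to 0.43 for Zeb1 and −0.44 to 0.25 for Twist1. In high cells Fn1 was at −0.0048 with doublets kept, −0.026 at a threshold of 20 and −0.0081 without cells with a Y-linked UMI, and Epcam at −0.34 at a threshold of 20. Cdh1 in low cells was at 0.055 with library size alone and 0.029 at a threshold of 5, T cell-like Vim at 0.084 with doublets kept and fibroblast-like Twist1 at −0.0058 with library size alone. Between high and low cells Zeb2 was at −0.014 at a threshold of 5 and −0.0082 with no filter, and Epcam at 0.082 at a threshold of 5, 0.014 at 20, 0.068 with no depth minimum, 0.074 with doublets kept, 0.0017 with DESeq2 and −0.24 to 0.24 with 1 library left out. Twist1, Cdh1, Cdh2 and Epcam in cancer-like cells are limited by their few UMIs.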
